A study of Mus musculus with 2 samples.

Results

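The genes described here are 43 enzymes and carriers that build and sulfate glycosaminoglycans, chosen by name from a list of functions and all found among the 23628 genes listed for each library. They were measured by RNA-sequencing in *Sox9* GFPHi chondrospheres, which are colonies that grew in methylcellulose from sorted single chondrocytes. The cells came from femoral heads of homozygous *Sox9* IRES-EGFP reporter pups at postnatal day 7. They were gated as GFP-high and negative for CD31, Ter119 and CD45, and the colonies were kept at low oxygen in medium with FGF2, BMP4, IGF1, LIF and TGF-β1. The series holds 2 libraries of this 1 condition, named replicate 1 and replicate 2, so no group could be set against another and no p-value was computed. The study took each pup as a biological replicate, but the labels do not tie a library to a pup, and the SD over the 2 libraries may include technical spread. Values are counts per 1000000 reads on genes (CPM), a pair of values without a label gives replicate 1 first, and levels of different genes are compared as CPM per kilobase of annotated exon, except for ranks named as ranks by CPM.

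Glycosaminoglycans are long sugar chains that carry negative charge, and in cartilage they hold the water that lets the tissue bear load. Chondroitin, dermatan and heparan sulfate chains all start from the same short linker on a serine of a core protein such as aggrecan, and the next sugar added commits the chain to 1 of the branches. Polymerases in the Golgi then extend the chain from UDP-sugars, and sulfotransferases decorate it with sulfate taken from the activated donor PAPS. Chondrocytes import the sulfate through SLC26A2, convert it to PAPS in the cytosol and carry PAPS into the Golgi. Loss of many of these genes in mice or patients gives skeletal dysplasia.

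Of the 43 genes, 41 reached 1 CPM in both libraries, or 95.3%, against 50.3% of all genes listed. At least 10 CPM in both libraries was reached by 37 of them, and 14 reached 100 CPM, or 32.6% against 3.72% of all genes. The median level was 59.1 CPM (replicate 1) and 67.0 CPM (replicate 2), where the median of all genes listed was 1.32 and 1.72 CPM. Together the 43 genes made up 0.677% of the summed CPM of replicate 1 and 0.705% of that of replicate 2. These shares describe a list that was picked for its function in this tissue, and no test against other genes was made.

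The step between the lowest values implied a depth of about 43300000 reads for replicate 1 and 42200000 for replicate 2, and the 41 detected members rested on at least about 122 reads in each library. The floor of 3 reads corresponded to 0.0693 and 0.0712 CPM and covers counting error only. The chondrocyte label was checked against 7 markers, all of which exceeded 1 CPM in both libraries and which together held 17.3% of the CPM of replicate 1 and 12.04% of that of replicate 2. Most of this sum came from *Col2a1*, at 148953 and 100682 CPM. Of the 4 endothelial and 5 erythroid markers none reached 1 CPM, while *Cd68*, at 2.56 and 2.40 CPM, was the one leukocyte marker of 4 that did. The 6 fibroblast markers summed to 1497 and 742 CPM, nearly all of it from *Dcn* and *Col3a1*, with *Pi16* listed at 0 in both libraries. The 5 osteoblast markers came to 4.86 CPM in replicate 1 but 52.7 CPM in replicate 2, most of the latter from *Dmp1*. In a bulk library, fewer cells of a type and less RNA per cell cannot be told apart.

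*Papss2*, which encodes the PAPS synthase known from brachymorphic mice, had the highest level of all 43 genes on either scale. It was measured at 2510 CPM (replicate 1) and 1714 CPM (replicate 2). Its mean was 2112 ± 563 CPM (SD, n = 2), and it ranked 33 of all genes by mean CPM. Its paralogue *Papss1*, which makes the same donor, was measured at 55.1 and 66.3 CPM. Both libraries thus held far more *Papss2* than *Papss1*. Per kilobase of exon *Papss2* exceeded *Papss1* 37.3-fold in replicate 1 and 21.2-fold in replicate 2, which is on average a log2 ratio of 4.81 ± 0.58 (SD, n = 2).

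The promoters of this pair are shown because both genes encode the same reaction and had the largest mean log2 ratio of the 13 pairs in which both genes were detected in each library. Each sequence is the 250 bases upstream of the RefSeq start nearest to the annotated 5′ end, from GRCm38.p6, read 5′ to 3′ on the strand of the gene. Capitals mark GC boxes (GGGCGG on either strand), a motif bound by SP factors. The *Papss2* window lies at chr19:32595465-32595714 on the plus strand and the *Papss1* window at chr3:131564518-131564767, also on the plus strand.
Papss2: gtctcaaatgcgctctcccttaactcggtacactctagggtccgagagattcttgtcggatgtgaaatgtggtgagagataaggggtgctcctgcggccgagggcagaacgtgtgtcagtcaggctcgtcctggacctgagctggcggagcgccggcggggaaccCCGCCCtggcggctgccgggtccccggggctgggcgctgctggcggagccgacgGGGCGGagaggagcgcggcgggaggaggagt
Papss1: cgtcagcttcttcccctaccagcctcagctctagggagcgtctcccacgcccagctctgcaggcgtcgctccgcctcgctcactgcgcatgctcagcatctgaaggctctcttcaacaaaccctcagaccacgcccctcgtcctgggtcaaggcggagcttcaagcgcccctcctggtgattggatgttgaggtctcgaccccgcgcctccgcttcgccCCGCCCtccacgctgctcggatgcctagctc
Both windows were rich in CpG, with 24 CpG dinucleotides for *Papss2* and 20 for *Papss1*. The *Papss2* window held 2 GC boxes and that of *Papss1* held 1, and neither held a TATA box (TATAAA on either strand). A start in the RefSeq table was matched for 35 of the 43 genes. A GC box was present upstream of 26 of them, or 74.3%, against 61.7% of the 9369 matched genes whose mean reached 1 CPM and 39.4% of all 20562 matched genes. Their median number of CpG was 18, against 16 and 8, and their median GC content 65.2%, against 60.4% and 54.0%. Relative to the number expected from C and G content, the median CpG ratio was 0.68, against 0.75 and 0.47. The members thus lay below genes of at least 1 CPM by that measure. For *Hs3st1* and *Extl1* the matched start lay 1.108e+05 and 1.13e+04 bases from the annotated 5′ end. The core motif AACAAT of SOX proteins, on either strand, was in none of the 35 windows and in 4.57% of those of genes with at least 1 CPM. A match describes the letters of the window and not binding, and the lack of one says only that these letters are not in it.

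The other genes of sulfate supply followed at lower levels. *Slc26a2*, the sulfate transporter gene that is mutated in diastrophic dysplasia, was measured at 386 CPM (replicate 1) and 641 CPM (replicate 2). *Slc35b2*, which encodes the carrier of PAPS into the Golgi, was measured at 63.0 and 76.3 CPM. The Golgi and cytosolic phosphatases that clear the by-product of sulfation, encoded by *Impad1* and *Bpnt1*, are not in the list of 43 and had 168 ± 77.0 and 25.5 ± 3.17 CPM (SD, n = 2 each). A second sulfate transporter gene, *Slc26a1*, had 2.87 ± 0.397 CPM (SD, n = 2). All 4 members of this step were well above the floor in both libraries. On the per-length scale they took 52.8% of the summed level of the 43 genes in replicate 1 and 40.2% in replicate 2, of which *Papss2* alone gave 47.8% and 33.2%.

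**Figure D1:**
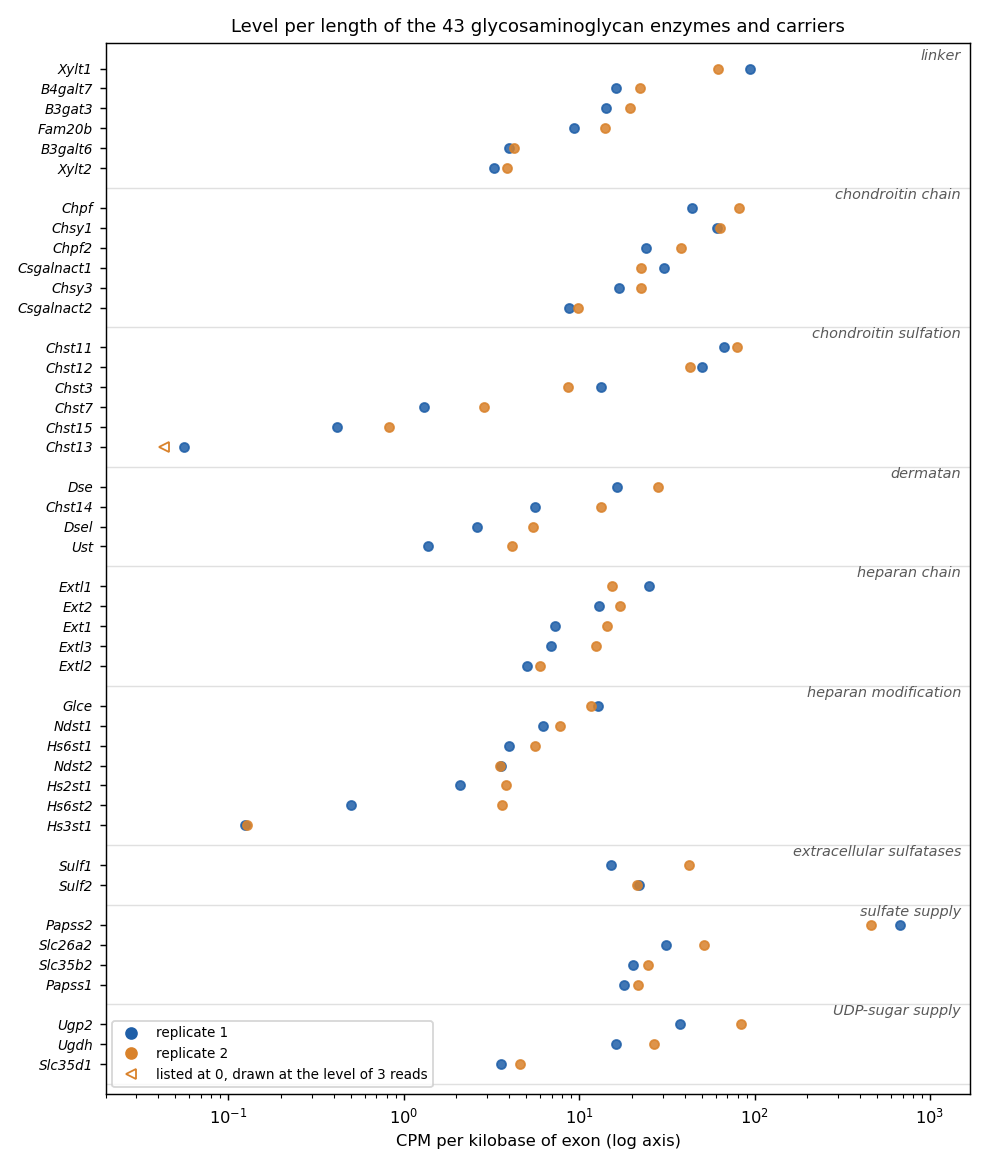
CPM per kilobase of exon (log axis) of all 43 genes in replicate 1 and replicate 2, grouped by step and ordered by mean within a step, with 1 point per library. *Papss2* lies to the right of every other gene in both libraries, and *Chst13* and *Hs3st1* lie furthest to the left; *Chst13* was listed at 0 in replicate 2 and is drawn there at the level of 3 reads.

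UDP-sugars, the building blocks of the chains, are supplied by the products of the next genes. *Ugp2*, which encodes the enzyme that makes UDP-glucose, was measured at 116 CPM (replicate 1) and 256 CPM (replicate 2). *Ugdh*, which encodes the dehydrogenase that converts UDP-glucose to UDP-glucuronic acid, was measured at 110 and 181 CPM. *Slc35d1*, whose product carries UDP-glucuronic acid and UDP-N-acetylgalactosamine into the lumen and whose loss gives Schneckenbecken dysplasia, was measured at 30.8 and 39.2 CPM. Each of the 3 genes had its higher CPM in replicate 2, as did 32 of the 41 members whose mean reached 1 CPM. All 15 further supply genes outside the 43 exceeded 1 CPM in both libraries. Among them were *Gfpt1* of hexosamine synthesis at 216 ± 31.4 CPM and *Gfpt2* at 104 ± 3.44 CPM (SD, n = 2 each), and *Uxs1*, whose product makes the UDP-xylose that starts the linker, had 74.2 ± 9.30 CPM (SD, n = 2).

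In the linker step, *Xylt1* stood far above the other genes. It encodes a xylosyltransferase that places the first sugar on the core protein, and its loss causes Desbuquois dysplasia. It was measured at 906 CPM (replicate 1) and 599 CPM (replicate 2), whereas its paralogue *Xylt2* was measured at 12.96 and 15.4 CPM. Per kilobase *Xylt1* exceeded *Xylt2* 28.6-fold in replicate 1 and 15.9-fold in replicate 2. The log2 ratio of 4.41 ± 0.60 (SD, n = 2) was larger than the spread between libraries. The galactosyltransferase genes *B4galt7* and *B3galt6*, which add the next sugars, had 55.7 ± 12.5 and 13.1 ± 0.643 CPM (SD, n = 2 each). *B3gat3*, which completes the linker with glucuronic acid, had 43.5 ± 9.49 CPM (SD, n = 2), and *Fam20b*, the kinase that phosphorylates its xylose, had 102 ± 28.9 CPM (SD, n = 2). *Pxylp1*, the phosphatase that removes this phosphate, is outside the list and was measured at 87.8 and 252 CPM, and *Cant1*, a Golgi nucleotidase gene of Desbuquois dysplasia, at 49.7 and 64.6 CPM. All 6 linker genes exceeded 10 CPM in both libraries. *B3galt6* and *Xylt2* were the lowest of the step per kilobase, at 4.12 ± 0.202 and 3.57 ± 0.441 CPM per kilobase (SD, n = 2 each).

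The chondroitin chain is begun by CSGALNACT1 and CSGALNACT2 and extended by complexes of chondroitin synthases and polymerizing factors. *Chsy1* was measured at 256 CPM (replicate 1) and 266 CPM (replicate 2), and *Chsy3* at 122 and 162 CPM. Per kilobase *Chsy1* exceeded *Chsy3* by a log2 ratio of 1.69 ± 0.25 (SD, n = 2), or by 1.05 with the longest coding transcript as length. *Chpf* was measured at 170 and 314 CPM and *Chpf2* at 135 and 214 CPM, a log2 ratio per kilobase of 0.98 ± 0.16 (SD, n = 2). *Csgalnact1* was measured at 156 and 115 CPM and *Csgalnact2* at 47.9 and 53.2 CPM, which gave 1.5 ± 0.41 per kilobase on the log2 scale (SD, n = 2). In all 3 families, the first-named gene was the higher in both libraries and the ratio exceeded its SD. *Chpf2* shares 44.1% of its exonic bases with *Smarcd3* on the opposite strand. *Smarcd3* itself was at 11.7 and 11.3 CPM, and whether reads were assigned by strand is not given in the sources used here.

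Sulfation of chondroitin was dominated in level by the genes of 4-O-sulfation. *Chst11*, whose loss in mice gives severe chondrodysplasia, was measured at 369 CPM (replicate 1) and 439 CPM (replicate 2). *Chst12* was measured at 119 and 102 CPM. Both were expressed in each library, whereas the third 4-O-sulfotransferase gene was near or under the floor. *Chst13* rested on 4 reads in replicate 1, at 0.0924 CPM, and was listed at 0 in replicate 2. *Chst11* exceeded it 1194-fold per kilobase in replicate 1 and at least 1846-fold in replicate 2, where 3 reads in that library were taken as the bound. *Chst11* was above *Chst12* per kilobase in both libraries, by a log2 ratio of 0.64 ± 0.34 (SD, n = 2), which is less than 0.83, the SD over the libraries of a log2 ratio between any pair of genes at 1 CPM or more.

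The genes of 6-O-sulfation were lower. *Chst3*, mutated in spondyloepiphyseal dysplasia with joint dislocations, was measured at 86.7 CPM (replicate 1) and 56.1 CPM (replicate 2), and *Chst7* at 2.87 and 6.33 CPM. *Chst15*, whose product adds a further sulfate to units that already carry 4-O-sulfate, was measured at 2.82 and 5.54 CPM. *Chst11* exceeded *Chst3* per kilobase 5.0-fold in replicate 1 and 9.20-fold in replicate 2, or 2.76 ± 0.62 on the log2 scale (SD, n = 2). Summed per kilobase, the 3 genes of 4-O-sulfation exceeded the 2 genes of 6-O-sulfation 8.01-fold in replicate 1 and 10.7-fold in replicate 2. RNA levels of these genes do not measure the sulfation pattern of the chains.

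Dermatan sulfate arises when glucuronic acid in a chondroitin chain is turned to iduronic acid by the epimerases DSE and DSEL. *Dse* was measured at 81.5 CPM (replicate 1) and 141 CPM (replicate 2), and *Dsel* at 15.2 and 31.4 CPM. *Chst14*, the dermatan 4-O-sulfotransferase gene, was measured at 11.7 and 27.9 CPM, and *Ust*, which adds 2-O-sulfate to uronic acid, at 6.40 and 19.3 CPM. All 4 genes had the higher CPM in replicate 2, as did 32 of the 41 members whose mean reached 1 CPM. *Dse* exceeded *Dsel* per kilobase by a log2 ratio of 2.50 ± 0.18 (SD, n = 2), one of the narrowest spreads among the pairs.

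**Figure D2:**
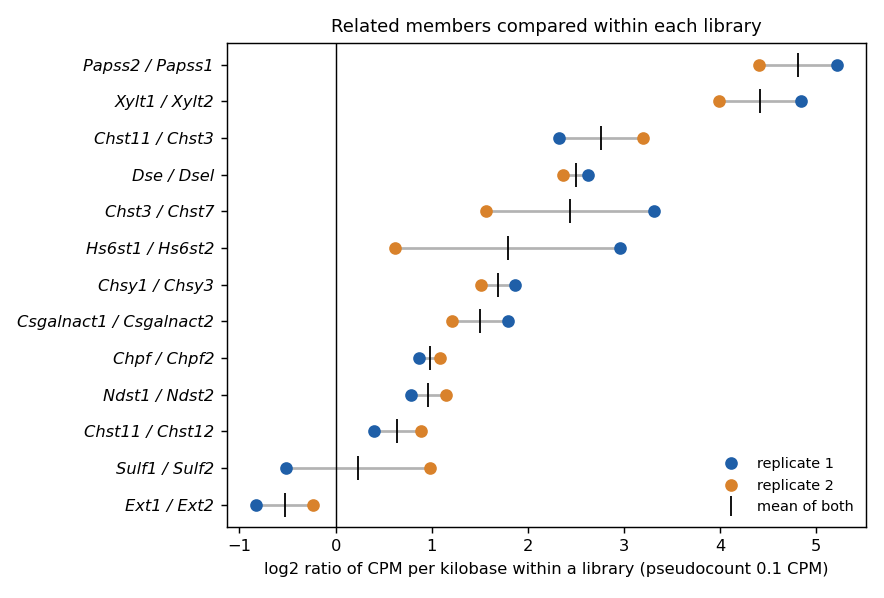
Log2 ratio of CPM per kilobase (pseudocount 0.1 CPM) between related genes within replicate 1 and within replicate 2, for 13 pairs, with a bar at the mean of both. *Papss2* to *Papss1* and *Xylt1* to *Xylt2* lie furthest from 0 at 4.81 and 4.41, and *Sulf1* to *Sulf2* is the pair whose points fall on both sides of 0.

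The heparan chain is polymerized by the EXT1 and EXT2 complex, the genes of which are mutated in multiple osteochondromas, and started by EXTL3. *Ext1* was measured at 59.1 CPM (replicate 1) and 117 CPM (replicate 2), and *Ext2* at 95.3 and 125 CPM. Per kilobase *Ext1* was below *Ext2* in both libraries, with a log2 ratio of -0.53 ± 0.42 (SD, n = 2), also less than 0.83. The size of this ratio depended on the length used, and with the longest coding transcript it was -1.81. Without division by length it was -0.39, which did not exceed its SD of 0.42. *Extl3* was measured at 41.7 and 75.6 CPM and *Extl2*, whose product can end a linker early, at 17.3 and 20.7 CPM. *Extl1*, an EXT-like gene with a less studied role, was measured at 108 CPM (replicate 1) and 67.0 CPM (replicate 2). It had the highest mean of this step per kilobase of exon, at 20.2 ± 6.67 CPM per kilobase (SD, n = 2), although *Ext2* passed it in replicate 2. This place also depended on the length. By mean CPM *Ext2* was the higher, at 110 against 87.4, and with the longest coding transcript as length *Ext2* exceeded *Extl1* in both libraries.

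Summed over their genes, the chondroitin chain step reached 186 CPM per kilobase in replicate 1 and 238 in replicate 2, and the heparan chain step 57.1 and 65.5. Their log2 ratio was 1.78 ± 0.11 (SD, n = 2), or 3.25-fold and 3.64-fold in the 2 libraries, and it was 2.39 with *Extl1* left out. The core proteins that receive the chains differed in the same direction. The 9 chondroitin and dermatan sulfate core protein genes exceeded the 12 listed heparan sulfate core protein genes 5.61-fold and 4.49-fold in summed CPM per kilobase, and 2.74-fold and 2.31-fold with *Acan* left out. This direction rested on *Acan* and *Bgn*. Without *Acan* the first list summed to 1805 and 1699 CPM per kilobase, of which *Bgn* gave 1599 and 1597. The rest of it was below the heparan list, which summed to 659 and 737. *Acan* and *Bgn* led the first list at 1752 and 1598 CPM per kilobase in the mean, and *Sdc3* led the second at 317. At least 1 CPM in both libraries was reached by 6 of the 9 and by 9 of the 12, with *Ncan*, *Epyc*, *Srgn*, *Col18a1*, *Gpc2* and *Gpc3* below it in at least 1 library. Many of these core proteins carry few chains and aggrecan many, so such sums do not count attachment sites.

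Within the heparan chain, N-sulfation comes first. *Ndst1*, the broadly used N-deacetylase and N-sulfotransferase gene, was measured at 51.3 and 64.7 CPM and *Ndst2* at 16.3 and 16.0 CPM, a log2 ratio per kilobase of 0.97 ± 0.25 (SD, n = 2). *Glce*, the gene of the epimerase that makes iduronic acid in heparan, was measured at 87.1 and 80.0 CPM and had the highest level of the step per kilobase. *Hs2st1*, the 2-O-sulfotransferase gene, was measured at 17.2 and 31.3 CPM. Of the 6-O-sulfotransferase genes, *Hs6st1* was measured at 22.2 and 31.03 CPM. *Hs6st2* was measured at 3.93 CPM (replicate 1) and 28.4 CPM (replicate 2). Per kilobase *Hs6st1* was 7.78-fold higher in replicate 1 and 1.54-fold higher in replicate 2, and the log2 ratio of 1.79 ± 1.65 (SD, n = 2) barely exceeded its spread. It did not exceed it with the longest coding transcript as length, at 1.52, or without division by length, at 1.30.

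*Hs3st1*, the 3-O-sulfotransferase gene known for the antithrombin-binding form of heparan sulfate, was measured at 0.277 and 0.285 CPM, or 12 reads in each library. Other 3-O-sulfotransferase genes outside the list were also low. Of 9 further heparan isoenzyme genes 5 were listed, and none reached 1 CPM in both libraries. *Hs3st5* was the highest of these, at 5.11 CPM (replicate 1) and 0.807 CPM (replicate 2), *Ndst3* was at 0.0462 and 1.21 CPM, *Hs3st3b1* at 0.687 and 0.655 CPM and *Hs3st3a1* at 0.122 and 0.460 CPM, and *Hs3st6* was listed at 0 in both.

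The extracellular sulfatases SULF1 and SULF2 remove 6-O-sulfate from finished heparan chains, which alters how growth factors bind. *Sulf2* was measured at 128 CPM (replicate 1) and 126 CPM (replicate 2). *Sulf1* was measured at 172 CPM (replicate 1) and 477 CPM (replicate 2). The order of the pair per kilobase of exon turned between the libraries, with *Sulf1* 1.43-fold lower in replicate 1 and 1.97-fold higher in replicate 2. The mean log2 ratio of 0.23 was smaller than its SD of 1.06. This turn depended on the length used. By CPM, and with the longest coding transcript as length, *Sulf1* was the higher in both libraries. The mean log2 ratio was then 1.17 and 0.88, and only the first exceeded the SD.

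Ordered by mean CPM per kilobase, *Papss2* stood first at 568 ± 151 and ranked 48 among the 22967 genes with a length. *Xylt1* at 78.0 ± 22.5, *Chst11* at 73.1 ± 8.99, *Chpf* at 62.8 ± 26.4, *Chsy1* at 62.5 ± 1.70, *Ugp2* at 60.5 ± 32.3, *Chst12* at 46.7 ± 5.29 and *Slc26a2* at 41.5 ± 14.5 CPM per kilobase followed (SD, n = 2 each). Only the step from *Papss2* to *Xylt1* was larger than its spread among these, with a log2 ratio of 2.87 ± 0.03 (SD, n = 2). From *Xylt1* down to *Slc26a2*, no neighbour differed from the next beyond the spread between libraries. Over the whole order, 10 of 42 neighbouring genes did, by a rule that is easily met with 2 libraries and is no test. At the low end *Chst15*, *Hs3st1* and *Chst13* were each separated from their neighbour among the 3, with *Hs3st1* at 0.126 ± 0.00236 CPM per kilobase (SD, n = 2).

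**Figure D3:**
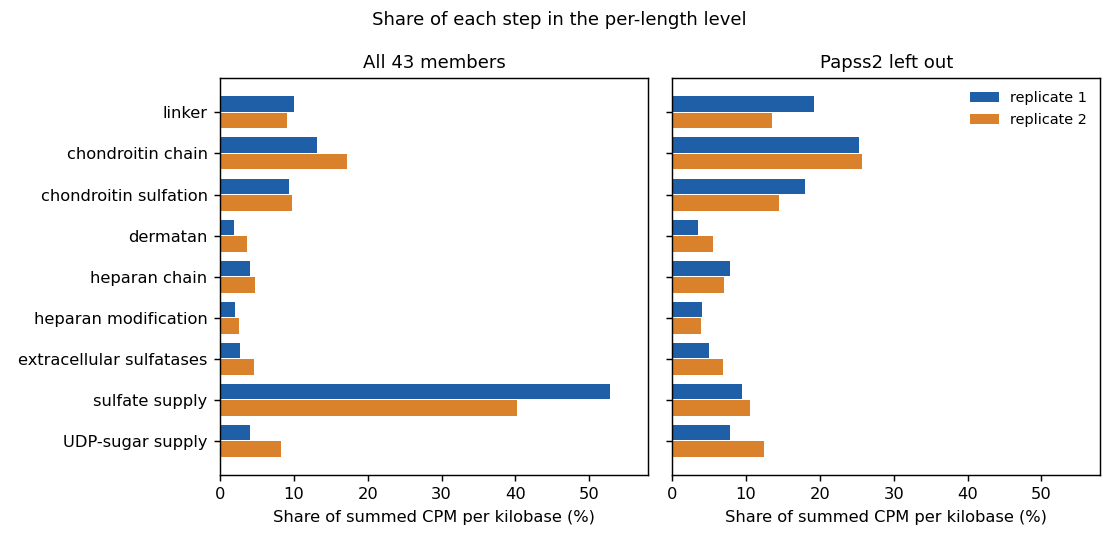
Share (%) of each step in the summed CPM per kilobase of the 43 genes (left) and of 42 genes without *Papss2* (right), with 1 bar for each library. Sulfate supply takes 52.8% and 40.2% with *Papss2* and 9.46% and 10.6% without it, when the chondroitin chain step is the largest at 25.3% and 25.7%.

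By step, sulfate supply thus held the largest share of the per-length level, followed by the chondroitin chain at 13.2% in replicate 1 and 17.2% in replicate 2, the linker at 9.99% and 9.07%, and chondroitin sulfation at 9.39% and 9.71%. Heparan modification had 2.07% and 2.61%, although it has the most genes of any step, and dermatan 1.84% and 3.69%. The large share of sulfate supply rested on 1 gene. With *Papss2* left out it was 9.46% and 10.6%, and the chondroitin chain step became the largest at 25.3% and 25.7%.

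The libraries were then compared with each other, which describes the spread within 1 condition and no treatment. Across the 12631 genes whose mean reached 1 CPM, replicate 2 was higher by a median log2 ratio of 0.30, and this was taken off each ratio (pseudocount 0.1 CPM). Past 2-fold after centring lay 3 of the 41 members, all higher in replicate 2, where 13.5% of all genes lay past 2-fold, 7.43% higher and 6.06% lower. The members' share of 7.32% rested on these 3 genes and lay near the 7.43% of all genes that were higher, and no member was lower past 2-fold. Genes were not matched by level for this, and the difference from 13.5% was not tested. *Hs6st2* was higher by 2.52 on the log2 scale, *Ust* by 1.27 and *Sulf1* by 1.17. Just within the limit were *Chst14*, higher by 0.94, and *Extl1*, *Chst3* and *Xylt1*, with log2 ratios of -0.99, -0.93 and -0.90.

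**Figure D4:**
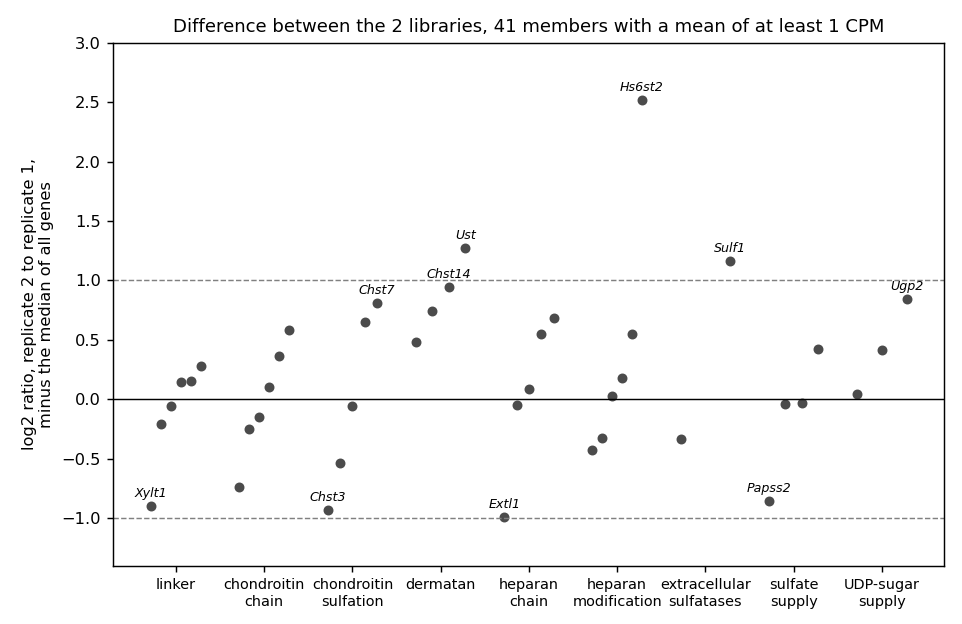
Log2 ratio of replicate 2 to replicate 1, less the median of all genes, for the 41 members whose mean reached 1 CPM, by step, with 1 point per gene and dashed lines at 2-fold. *Hs6st2*, *Ust* and *Sulf1* lie above the upper line, no gene lies below the lower one, and all 4 dermatan genes lie above 0.

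The median centred log2 ratio of the 41 members was 0.11, against 0 for all genes by construction, with 24 members above 0 and 17 below. Without centring 32 lay above 0 and 9 below. The 4 dermatan genes all lay above 0, between 0.48 and 1.27, as did the 3 genes of UDP-sugar supply, between 0.05 and 0.84. In each of 6 other steps, and for the pair of sulfatases, the ratios lay on both sides of 0. *Papss2* and *Xylt1*, the members with the highest mean level per kilobase, both lay below 0, at -0.85 and -0.90. By level per kilobase *Xylt1* took place 2 in replicate 1 but place 6 in replicate 2. Without centring 7 members were past 2-fold, again all higher in replicate 2, against 15.1% of all genes, 11.4% higher and 3.71% lower.

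Some chondrocyte and bone markers also differed between the libraries. Of the 7 chondrocyte markers, 2 were more than 2-fold lower in replicate 2 after centring, against 6.06% of all genes. The median log2 ratio of the 7 was -0.54, and *Matn3* went from 741 to 53.1 CPM. *Sox9* lay at -0.16 on the log2 scale, and *Hapln1* went the other way, at 0.16. Of the 4 osteoblast markers whose mean reached 1 CPM, 3 were more than 2-fold higher, against 7.43% of all genes. These were *Dmp1*, from 0.116 to 40.4 CPM, *Sp7*, from 1.96 to 6.81 CPM, and *Alpl*, from 0.462 to 1.92 CPM. *Ibsp* lay at 0.22 on the log2 scale, and *Bglap* was at 0.0787 and 0.229 CPM. The 10 highest genes held 43.4% of the CPM of replicate 1 and 34.7% of that of replicate 2. The part of these differences in the members' ratios was not tested.

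Other sulfated or related glycans were represented by few genes. Of 7 keratan sulfate genes 4 exceeded 1 CPM in both libraries, namely *B4galt1* at 52.0 and 177 CPM, *B3gnt2* at 15.8 and 19.8 CPM, *B4galt4* at 5.82 and 6.43 CPM and *Chst2* at 4.02 and 21.02 CPM. *B3gnt7* and *Chst1*, which act on keratan chains in particular, were at most at 0.0924 and 0.237 CPM, and *Chst5* was at 3.997 and 0.617 CPM. Among the hyaluronan synthases *Has2* was measured at 24.5 and 55.3 CPM, while *Has1* and *Has3* stayed below 1 CPM in both. On the side of breakdown, 17 of 19 lysosomal genes exceeded 1 CPM in both libraries, among them *Hexa* at 260 ± 29.4 CPM and *Ids* at 120 ± 34.3 CPM (SD, n = 2 each). The exceptions were *Hyal3*, at 0.580 and 0.0739 CPM, and the heparanase gene *Hpse*, listed at 0 in replicate 1 and at 0.237 CPM in replicate 2.

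Members shared little sequence with other genes. In the GENCODE M21 transcripts, at most 1.84% of the 50-base words of a member, those of *Ugdh*, occurred also in a transcript of another gene, and 28 members shared none. Besides *Chpf2*, an opposite-strand overlap above 10% of exonic bases was found only for *Chst15*, at 17.9%. *Papss2* lies on chromosome 19 from 32595790 to 32667187, *Xylt1* on chromosome 7 from 117380979 to 117673580 and *Chst11* on chromosome 10 from 82985498 to 83195900 of GRCm38, each annotated as protein coding, with 3721, 9651 and 5527 exonic bases.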

How the data were processed

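RNA-sequencing was available for 2 libraries of *Sox9* GFPHi chondrospheres. Stranded libraries were prepared from polyadenylated RNA and sequenced single-end. The authors aligned them with STAR 2.7.3a to GRCm38 with GENCODE M25, quantified genes by Partek E/M in Partek Flow 10.0.21.0801 and deposited CPM, with 0.0001 added to each value. This offset was subtracted here. Of the low values, 66.5% and 65.3% were whole multiples of 1 read within 0.05 of a read, too few to rebuild read counts, and tests for counts were therefore not used.

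Exonic length came from GENCODE M21 on GRCm38, an earlier release of the authors' annotation, which matched 97.2% of the genes by name. Log2 ratios used a pseudocount of 0.1 CPM. A ratio within a library was called larger than the spread where its sign was the same in both libraries and its mean exceeded the SD. With 2 libraries, genes of equal level can easily meet this rule, so it is no test. The 43 members were all named, and other genes came from lists of the pathway and of cell type markers, of which the text names the 3 highest by mean CPM and those under 1 CPM, with a few more where a role is described. One gene that this rule would name is not reported here. *Ndst4*, *Hs3st2*, *Hs3st4*, *Hs6st3* and *Gpc5* are on those lists but without a value under these names. *Impad1* is the older name of *Bpnt2* and was counted once. The members and lists were chosen with earlier results of these data known. Alternatives were the longest coding transcript or no length, a pseudocount of 1 CPM, another scaling or filter, and each library left out. The calculation of ratios was tested on simulated libraries with known changes and a smaller spread than the real ones. This checks the calculation and not the 2-fold calls made here. Python 3.11.15, numpy 2.4.6, pandas 2.3.3 and matplotlib 3.10.9 were used.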

Additional observations from a re-analysis of the deposited data

How the results depend on the processing

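With 2 libraries of 1 condition, all values are descriptions. No paired analysis was possible because the libraries belong to a single group. For 112 results, 359 values were recomputed with 1 choice changed, of which 330 moved by less than their limit and 29 by more. The limit was the SD between libraries for levels, shares and ratios between genes, 1.5 times for a count, 0.59 for a member's log2 ratio between libraries (the SD over all genes, divided by the square root of 2) and 0.1 for the members' median. No ratio larger than its spread and no member past 2-fold changed sign. Of the other log2 ratios 9 did, which were *Sulf1* to *Sulf2*, at -0.52 without replicate 2, and, without centring, the ratios between libraries of 8 members, *Xylt2*, *B3galt6*, *Csgalnact2*, *Chsy1*, *Chst11*, *Extl2*, *Papss1* and *Slc35b2*. Of the 330, 136 came from leaving out 1 of 2 libraries. Doing so moves a mean by less than 1 SD by arithmetic, whatever the values. Omitting the centring shifts each member's ratio between libraries by the same 0.30, so those values were also bound to stay within 0.59. The other scaling tried took off nearly the same centre, 0.298 against 0.304. The count of 330 is therefore no measure of stability. The left-out-library shares of the summed level ranged from 40.2% to 52.8% for sulfate supply and from 13.2% to 17.2% for the chondroitin chain.

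The choice to leave out *Papss2*, made after seeing the data, moved every share, since the total is then smaller, to 16.4% for the linker, 25.5% for the chondroitin chain, 16.3% for chondroitin sulfation, 4.53% for dermatan, 7.41% for the heparan chain, 3.94% for heparan modification, 5.95% for the sulfatases, 10.01% for sulfate supply and 10.1% for UDP-sugar supply. Division by the longest coding transcript in place of all exons gave 8.21% for chondroitin sulfation, 5.28% for the heparan chain, 2.74% for heparan modification and 5.17% for the sulfatases. The log2 ratio of the chondroitin chain to the heparan chain was 1.53 with that length and 2.39 with *Extl1* left out, both chosen after seeing the data. With that length the log2 ratio of *Ext1* to *Ext2* was -1.81, since the exons of *Ext2* then shrink from 7328 to 2871 bases. Against the spread of any pair of genes, also added after seeing the data, 11 of 14 ratios were larger, against 13 by their own SD. The latter count was 12 with the longest coding transcript and 12 without division by length, and *Hs6st1* to *Hs6st2* was no longer larger in either. Without division by length *Ext1* to *Ext2*, at -0.39, was also no longer larger, while *Sulf1* to *Sulf2*, at 1.17, became larger. The count of members past 2-fold was 7 without centring, and their median log2 ratio was then 0.41. Without a pseudocount the log2 ratio of *Chst11* to *Chst13* has no finite value, as *Chst13* was listed at 0 in replicate 2.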
